A study of Rattus norvegicus with 6 samples.

Results

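The genes described here encode proteins of the Z-disc and the M-band, the structures that hold the filaments of the heart muscle sarcomere in register. With earlier results of these data known, they were chosen by name as titin, Z-disc and M-band genes. They were Ttn, Actn2, Tcap, Ldb3, Myoz2, Csrp3, Nebl, Myom1 and Myom2. Of these 9 genes, 5 had a row in the deposited count table of 21648 genes: Actn2, Myoz2, Csrp3, Nebl and Myom2. Ttn, Tcap, Ldb3 and Myom1 were not analysed here, so nothing below bears on titin itself.

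The cells were neonatal rat ventricular myocytes (NRVM), heart muscle cells from wild-type rat pups of postnatal day 3, plated after a step that lets fibroblasts attach and be left behind. Bromodeoxyuridine, which limits the growth of dividing cells, was in the plating medium of all cultures, which were later kept without serum, with insulin, transferrin and selenium. The labels do not say whether hearts were pooled. 3 libraries came from cultures given 10 µM of 915, which the submitters describe as an ERR (estrogen-related receptor) agonist, for 72 h, and 3 from cultures given its solvent DMSO for 72 h. The labels call the libraries biological replicates without saying whether they stem from separate cell isolations, so p-values reflect variation among the 6 cultures sequenced, some of which may be technical.

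The Z-disc is where actin filaments of neighbouring sarcomeres meet and are cross-linked by alpha-actinin, and where LIM and PDZ proteins and the calcineurin-binding calsarcins attach. Titin runs from the Z-disc to the M-band, where myomesins link the thick filaments to each other. Mutations in many of these genes are known causes of human cardiomyopathy. In heart, ERRs are known as nuclear receptors that turn on genes for mitochondrial energy supply.

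Depth was 30639244 to 38078137 counts per library with 915 and 36799845 to 40010826 with DMSO. The cells carried the markers of the labelled type: all 10 cardiomyocyte markers checked were detected, and their summed level was 26782 to 27167 CPM (counts scaled by the authors to the library total) with 915 and 19053 to 20011 CPM with DMSO. Markers of other cells were present too, and their sums were lower with 915. The 11 fibroblast markers summed to 13608 to 14413 CPM with 915 and 25675 to 26767 CPM with DMSO. Most of this sum came from the collagen genes Col1a1, Col1a2 and Col3a1, so it mainly follows collagen transcripts. Col1a1 averages were 6289 CPM (915) and 11988 CPM (DMSO), and those of Col3a1 were 2826 and 7067 CPM. Postn hardly differed, at 1597 and 1606 CPM in that order, while Dcn and Pdgfra were higher with 915. By edgeR, 8 of the 11 markers were lower and 2 higher. The 6 smooth muscle and pericyte markers in the table summed to 738 to 790.3 CPM with 915 and 1770 to 1909 CPM with DMSO, and the 8 endothelial ones to 57.3 to 60.04 CPM with 915 and 70.9 to 73.9 CPM with DMSO. The 7 macrophage and leukocyte markers summed to 115 to 139 CPM with 915 and 218 to 234 CPM with DMSO. These sums do not describe every gene in them. Tagln averaged 362 CPM (915) and 1209 CPM (DMSO), more than any other gene of the smooth muscle and pericyte sum. Of the 8 endothelial genes, 4 fell by edgeR, 1 rose and 3 did not pass. The 1 that rose was Kdr (log2 fold change 0.26, edgeR adjusted p = 6.37e-03). In the list of 7, 4 fell, 0 rose and 3 did not pass. No marker in these lists was at 0 in all libraries. In RNA from whole cultures, fewer cells of a type and less RNA per cell cannot be told apart.

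Starting sequences were given for 3 of the 5 genes in RefSeq (build GRCr8), as windows of 250 bases before to 50 bases after the annotated start. Csrp3 and Myom2, which had the largest rises with 915, had no such sequence. Of the genes shown, Actn2 and Myoz2 rose with 915 while Nebl did not pass the test. Every window given is shown. Each is written 5′ to 3′ on the strand of the gene, with matches to the motifs named in the next paragraph in capitals, E-boxes excepted. The windows lie at chr17:62834805-62835104 on the plus strand for Actn2, at chr2:213852729-213853028 on the minus strand for Myoz2, and at chr17:85135247-85135546 on the minus strand for Nebl.
Actn2: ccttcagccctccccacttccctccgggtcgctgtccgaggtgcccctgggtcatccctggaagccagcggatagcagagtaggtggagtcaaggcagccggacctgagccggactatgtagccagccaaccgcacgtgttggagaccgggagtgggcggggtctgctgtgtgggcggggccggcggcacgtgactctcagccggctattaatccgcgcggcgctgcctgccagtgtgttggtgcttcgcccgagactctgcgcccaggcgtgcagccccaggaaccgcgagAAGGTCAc
Myoz2: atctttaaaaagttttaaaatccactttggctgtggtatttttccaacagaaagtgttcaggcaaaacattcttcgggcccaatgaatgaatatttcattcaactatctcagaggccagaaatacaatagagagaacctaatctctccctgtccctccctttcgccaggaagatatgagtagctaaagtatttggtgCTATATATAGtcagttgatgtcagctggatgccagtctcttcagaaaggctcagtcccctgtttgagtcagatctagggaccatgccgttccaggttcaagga
Nebl: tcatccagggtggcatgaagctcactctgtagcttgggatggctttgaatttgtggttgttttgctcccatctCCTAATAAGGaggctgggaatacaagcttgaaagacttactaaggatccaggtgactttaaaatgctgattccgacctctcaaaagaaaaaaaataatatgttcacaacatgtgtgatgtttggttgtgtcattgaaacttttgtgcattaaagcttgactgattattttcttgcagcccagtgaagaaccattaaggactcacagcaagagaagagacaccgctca

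7 motifs were searched on both strands. They were the ERR half-site AAGGTCA, the extended ERR element TNAAGGTCA, which contains the half-site, the MEF2 consensus and the CArG box by name, the MCAT element CATTCC, the E-box CANNTG and the TATA box TATAAA. The Actn2 window held an ERR half-site at bases 293 to 299 of the window, after the start, and 4.61% of all 33469 promoter windows of this length held a half-site on either strand. None of the 3 windows held the extended element, which 1.2% of all windows held. The Myoz2 window held a MEF2 consensus, CTATATATAG, beginning 53 bases before the start (3.29% of all windows held one). The Nebl window held a CArG box, CCTAATAAGG, beginning 177 bases before the start (1.64% of all windows). Each of the 3 windows held 2 E-boxes, a motif present in 72.1% of all windows. No MCAT element or TATA box of this spelling was in them. Nebl is known to have more than one start, and its window covers a single one. A match of letters does not show that a factor binds.

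With 915, transcripts of 4 of the 5 genes were higher and 0 were lower. The largest change was in Csrp3, a LIM protein gene, whose transcripts were 1.66-fold higher. The M-band gene Myom2 was 1.3-fold higher, and the Z-disc genes Actn2 and Myoz2 1.17-fold and 1.15-fold. Nebl did not pass the test. Across all 14253 genes tested, 49.8% had an adjusted p under 0.05 by edgeR's quasi-likelihood method with TMM scaling, which sets libraries to a common level of most genes, 24.3% being higher with 915 and 25.5% lower. Against that background a single call is common, and the 5 genes are described here by their sizes and library values. The share of all tested genes whose 915 and DMSO libraries did not overlap was not counted. A lack of overlap below therefore only describes the gene named. Their median log2 fold change was 0.23, against −0.01 over all genes tested.

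Actn2 (ENSRNOG00000017833) encodes sarcomeric alpha-actinin, the main cross-linker of actin filaments at the Z-disc. It had 1581, 1541 and 1540 CPM in the 915 libraries, against 1333, 1409 and 1379 CPM in the DMSO libraries. All 915 libraries lay above all DMSO libraries, and the libraries of a group differed little, with coefficients of variation of 1.53% with 915 and 2.79% with DMSO. The log2 fold change was 0.23 ± 0.0449 (SE; edgeR adjusted p = 7.84e-04), a size that 56.5% of all tested genes exceeded in one direction or the other.

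Myoz2 (ENSRNOG00000014815) encodes calsarcin-1, which binds alpha-actinin and the phosphatase calcineurin at the Z-disc of heart muscle. It had 243, 251 and 252 CPM with 915, against 220, 239 and 214 CPM with DMSO. The groups did not overlap, but the highest DMSO library, replicate 2, came within a few CPM of the lowest 915 library, replicate 1. Its log2 fold change of 0.20 ± 0.0522 (SE) passed the test (edgeR adjusted p = 6.25e-03), and it passed again without each library in turn, with adjusted p between 3.13e-04 and 0.0415. Within a library the ratio of Myoz2 to Actn2 counts hardly moved: its log2 difference was −0.03 and the groups overlapped (two-sided exact permutation p = 0.5).

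Csrp3 (ENSRNOG00000014327) encodes muscle LIM protein, which sits at the Z-disc and is required in mouse for normal heart structure. It had 349.9, 355 and 405 CPM in the 915 libraries, against 224, 248 and 219 CPM in the DMSO libraries. All 915 libraries were well above all DMSO libraries, and 915 replicate 3 was the highest. The log2 fold change was 0.73 ± 0.0655 (SE; edgeR adjusted p = 4.74e-07), and 3.95% of all tested genes had a higher one. Leaving out single libraries gave values of 0.66 to 0.80.

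Nebl (ENSRNOG00000049452) encodes nebulette, an actin-binding protein of the cardiac Z-disc, and, from other starts of the same gene, the more widely expressed LIM protein LASP-2. The table counts the whole gene, so these products cannot be told apart. It had 35.8, 45.6 and 30.1 CPM with 915, against 38.3, 36.0 and 45.5 CPM with DMSO. The groups overlapped: 915 replicate 2 and DMSO replicate 3 were the high libraries, and 915 replicate 3 the lowest. The spread within groups was the widest of the 5 genes, with coefficients of variation of 21.0% with 915 and 12.4% with DMSO. The change did not pass the test, at −0.06 ± 0.12 on the log2 scale (SE; edgeR adjusted p = 0.708). Its approximate 95% interval of −0.30 to 0.18 includes a fall as large as the rise of Actn2, but no change as large as that of Csrp3 in either direction. Its sign turned to 0.07 without 915 replicate 3 and to 0.05 without DMSO replicate 3.

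Myom2 (ENSRNOG00000011754) encodes myomesin 2, also called M-protein, which links thick filaments at the M-band. It had 790.1, 797 and 728 CPM with 915, against 604, 622 and 622 CPM with DMSO. All 915 libraries were above all DMSO libraries, and 915 replicate 3, the highest library for Csrp3, was here the lowest of its group. The log2 fold change was 0.37 ± 0.0477 (SE; edgeR adjusted p = 1.71e-05), and 14.4% of all tested genes had a higher one.

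**Figure D1:**
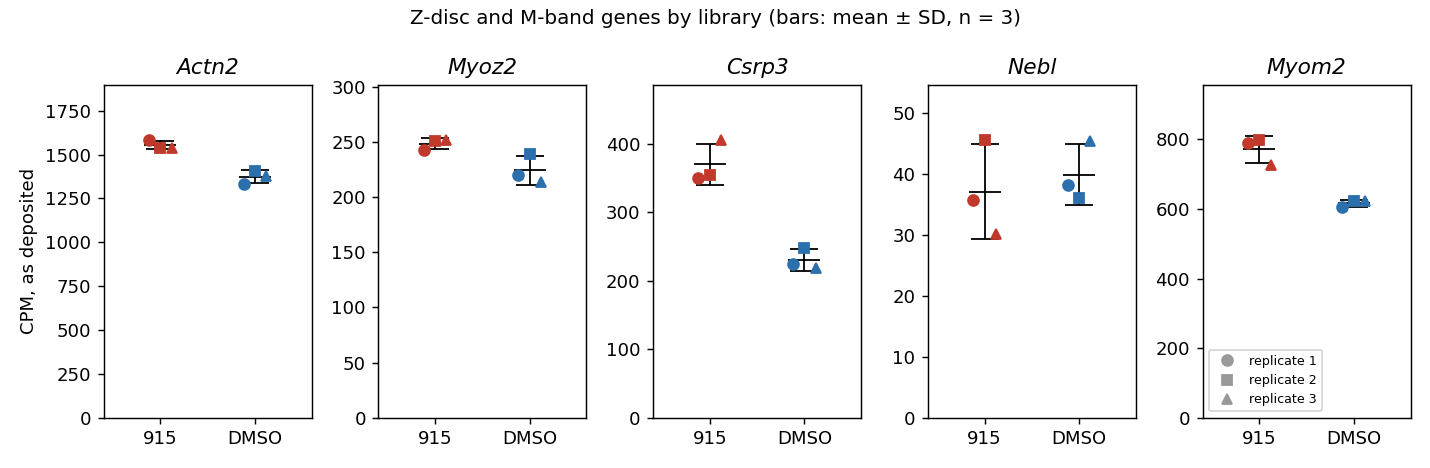
Levels of the 5 genes in each library, in CPM as deposited on a linear axis from 0, with the 915 libraries on the left and the DMSO libraries on the right of each panel. Points are libraries, and bars are the mean ± SD (n = 3). In Actn2, Myoz2, Csrp3 and Myom2 all 915 libraries lie above all DMSO libraries, while in Nebl they are mixed. The share of all genes so separated was not counted.

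The 5 genes were set against each other within libraries. Ratios of counts within a library, which do not depend on how libraries are scaled to each other, were compared for all 10 pairs, 9 of which were added after the values had been seen. The ratio of Csrp3 to Actn2 was higher with 915 by 0.51 on the log2 scale, and that of Csrp3 to Myoz2 by 0.53, without overlap between groups. The ratio of Myom2 to Csrp3 was lower by 0.36, and that of Myom2 to Actn2 higher by 0.15. Of the 10 ratios, 6 had groups that did not overlap. Each of the 6 had p = 0.1 in a two-sided exact permutation test, which cannot go lower with 3 libraries a group. After Benjamini-Hochberg adjustment over the 10 this was 0.167. The 10 ratios reuse the same 5 genes, and every ratio with Csrp3 was among the 6, so they are not independent. The share of all gene pairs without overlap was not counted. The ratio of Nebl to Actn2 differed by −0.30 with overlapping groups (exact permutation p = 0.3).

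Over the 6 libraries the log2 levels of Actn2, Myoz2, Csrp3 and Myom2 were correlated with each other, with Pearson's r between 0.852 and 0.967 (the difference between the groups is included). Once each group's mean was taken out, the coefficient was 0.786 for Csrp3 and Myoz2 and −0.509 for Myom2 and Csrp3. Nebl had coefficients of −0.345 to −0.00597 with the other four over the 6 libraries. With the group means taken out, its coefficients ranged from −0.735 with Csrp3 to 0.71 with Myom2. These are descriptions of 6 points that share libraries and depth. Likeness to the mean of the 5 standardised profiles was ranked over other genes. They had to average at least 5 CPM and carry a symbol that is not a placeholder. The 8 most alike over the 6 libraries were Upf1, Mt-cyb, Prkce, Bace1, Trim55, Tp53i3, Sned1 and Tmem140, with r between 0.995 and 0.999. Of these, Bace1 did not pass the test (edgeR adjusted p = 0.0593). With 2 groups of 3 libraries such a coefficient mostly reads the difference between the groups. Values this high follow in part from taking the top of a ranking, so the 8 genes are only a description. Nebl itself had r = 0.0322 with the mean of the 5 profiles.

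Many cardiomyocyte markers had larger log2 fold changes than these genes in the same libraries. Of the 10 cardiomyocyte markers 9 were higher and 0 lower, with log2 fold changes from 0.19 for the transcription factor gene Gata4 to 1.07 for the troponin gene Tnni3 and a median of 0.39. Of these markers 8 had a higher log2 fold change than Actn2, 8 a higher one than Myoz2, 6 a higher one than Myom2 and 3 a higher one than Csrp3. Set against the summed counts of the 10 markers, of which Tnnt2, Myh6, Myh7 and Actc1 made up most, 4 of the 5 genes were lower with 915. Actn2 counts equalled 5.89%, 5.75% and 5.67% of the marker counts with 915, against 6.998%, 7.04% and 7.04% with DMSO. Myom2 counts equalled 2.94%, 2.98% and 2.68% with 915, against 3.17%, 3.11% and 3.18% with DMSO. Csrp3 went the other way, at 1.3%, 1.33% and 1.49% with 915, against 1.18%, 1.24% and 1.12% with DMSO. These percentages are of counts, not corrected for gene length, and serve only to compare libraries. For each of the 5 genes the groups did not overlap on this scale (exact permutation p = 0.1, the smallest possible). The share of all genes without overlap was not counted. In edgeR scaled to the same markers 75% of all tested genes were lower, so separation on this scale is not particular to these genes.

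With the summed markers as library size in edgeR, log2 fold changes were −0.28 ± 0.0429 for Actn2, −0.31 ± 0.0506 for Myoz2, −0.14 ± 0.0497 for Myom2, −0.57 ± 0.121 for Nebl and 0.22 ± 0.059 for Csrp3 (SE), and each passed the test (edgeR adjusted p between 1.61e-05 and 0.0188). On that scale the median of all genes moved by −0.51, to −0.52, so that Actn2, Myoz2 and Myom2 still lay above the median gene and Nebl just below it. Of all 14253 genes tested, 3.06% were higher and 75% lower on it, so a lower call was common. The same scale called 3.92% of passing genes higher, where TMM scaling called 48.8% higher. The direction given for Actn2, Myoz2 and Myom2 therefore holds relative to all genes and reverses relative to the summed cardiomyocyte markers. That of Csrp3 is upward on both. Within the marker sum, the shares of Myh6, Tnni3, Tnnc1 and Pln were larger with 915, and those of all other markers smaller. Myh6 made up 16.5% with DMSO and 20.4% with 915, and Tnnt2 26.6% and 22.8%. With TMM the median marker log2 fold change, 0.39, was near the 0.37 of Myom2. The reversal is thus against the sum, not against every marker.

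**Figure D2:**
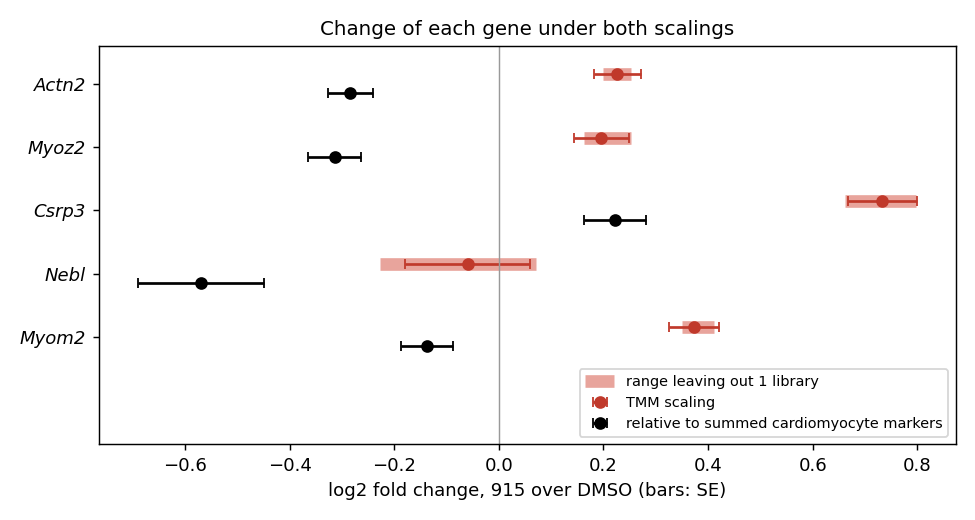
Log2 fold change of each gene, 915 over DMSO, with TMM scaling (red, with the range over fits that leave out 1 library as a pale bar) and relative to the summed cardiomyocyte markers (black). Bars are SE. Only Csrp3 lies above 0 on both scales, Actn2, Myoz2 and Myom2 change sign, and Nebl has a leave-one-out range that spans 0 with TMM.

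Most relatives of these genes from the same protein families moved down. Of 15 family relatives tested, 11 were lower with 915, 2 were higher and 2 did not pass, with a median log2 fold change of −0.60, where 25.5% of all tested genes were lower and 24.3% higher. Many of them are used outside heart muscle, in cells whose markers were also lower here, with medians of −0.55 for the fibroblast markers (8 of 11 lower, 2 higher) and −0.79 for the smooth muscle and pericyte markers (5 of 6 lower, 0 higher). The part of such cells in the fall of the relatives was not tested.

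Among the alpha-actinins, the non-muscle form Actn4 averaged 438 ± 13.9 CPM with 915 and 705 ± 18.6 CPM with DMSO (SD, n = 3 each; log2 fold change −0.64 ± 0.0443 SE, edgeR adjusted p = 3.46e-08). The fast skeletal form Actn3 was scarce, at 0.394 ± 0.0261 CPM with 915 and 0.882 ± 0.259 CPM with DMSO, and also fell (edgeR adjusted p = 0.0177). The log2 ratio of Actn2 to Actn4 within a library was 1.81, 1.81 and 1.86 with 915, against 0.88, 1.04 and 0.97 with DMSO. This ratio was higher in every 915 library than in any DMSO library, which follows from the rise of Actn2 and the fall of Actn4. The pair, like the other pairs of a gene and a relative below, was chosen after the values had been seen. The other non-muscle form, Actn1, was not analysed here.

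Csrp3 belongs to the cysteine- and glycine-rich LIM proteins, and its ratio to Csrp1 had the largest difference of the 7 ratios taken between a gene and a relative. Csrp1 and Csrp2, the forms known from smooth muscle and other cells, fell by 0.48 ± 0.0446 and 0.24 ± 0.0518 on the log2 scale (SE; edgeR adjusted p = 7.78e-07 and 1.48e-03). Csrp1 averaged 278 ± 8.02 CPM with 915 and 399.9 ± 8.58 CPM with DMSO, and Csrp2 averaged 72.6 ± 0.196 CPM with 915 and 88.7 ± 3.5 CPM with DMSO (SD, n = 3 each). The log2 ratio of Csrp3 to Csrp1 was 0.30, 0.40 and 0.53 with 915, against −0.87, −0.68 and −0.85 with DMSO, a difference of 1.21. That of Csrp3 to Csrp2 differed by 0.97.

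Myoz1 and Myom3, the skeletal muscle relatives of Myoz2 and Myom2, did not pass the test. Myoz1 averaged 2.84 ± 0.193 CPM with 915 and 3.71 ± 0.353 CPM with DMSO (edgeR adjusted p = 0.0934), and Myom3 averaged 3.86 ± 0.583 CPM with 915 and 5.07 ± 0.927 CPM with DMSO (edgeR adjusted p = 0.109). The ratio of Myoz2 to Myoz1 was higher with 915 by 0.53 on the log2 scale and that of Myom2 to Myom3 by 0.71, without overlap of the groups.

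The nebulin family divided in another way, with its cardiac member Nebl at no call. Nrap, a nebulin-related protein that takes part in myofibril assembly and binds alpha-actinin, rose to 280 ± 8.26 CPM with 915, against 199 ± 3.97 CPM with DMSO (log2 fold change 0.54 ± 0.0461 SE, edgeR adjusted p = 2.90e-07). Lasp1, a LIM and SH3 protein of adhesion sites, fell to 232 ± 2.70 CPM with 915, against 363 ± 20.8 CPM with DMSO (edgeR adjusted p = 1.69e-07). Neb, the giant skeletal muscle nebulin, was at 1.10 ± 0.434 CPM with 915 and 3.27 ± 0.499 CPM with DMSO, and fell as well (edgeR adjusted p = 2.48e-04). The log2 ratio of Nebl to Nrap was lower with 915 by 0.61 with no overlap of groups, and that of Nebl to Lasp1 differed by 0.52 with overlap (exact permutation p = 0.2). Of the 7 ratios between a gene and a relative, 6 had groups that did not overlap. Each of the 6 had the smallest possible exact permutation p of 0.1, or 0.117 adjusted over the 7. The pairs were chosen after the values had been seen, and the share of all gene pairs without overlap was not counted. The count of 6 therefore only describes these pairs.

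PDZ-LIM proteins share their layout with the product of Ldb3. Of the 6 tested, Pdlim1, Pdlim2, Pdlim3, Pdlim4 and Pdlim7 fell, by 0.21 to 0.87 on the log2 scale. Pdlim5, whose product is a partner of alpha-actinin in heart, rose to 233 ± 1.65 CPM with 915, against 204 ± 3.16 CPM with DMSO (log2 fold change 0.24 ± 0.0438 SE, edgeR adjusted p = 4.42e-04). Relative to the summed cardiomyocyte markers 0 of the 15 relatives were higher and 14 lower, where 3.06% of all tested genes were higher and 75% lower. Nrap and Pdlim5 were thus not higher on that scale, which shifts the median of all genes by −0.51. Pdlim3, also a muscle actinin partner, fell to 41.7 ± 3.65 CPM with 915, against 70.0 ± 1.59 CPM with DMSO.

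**Figure D3:**
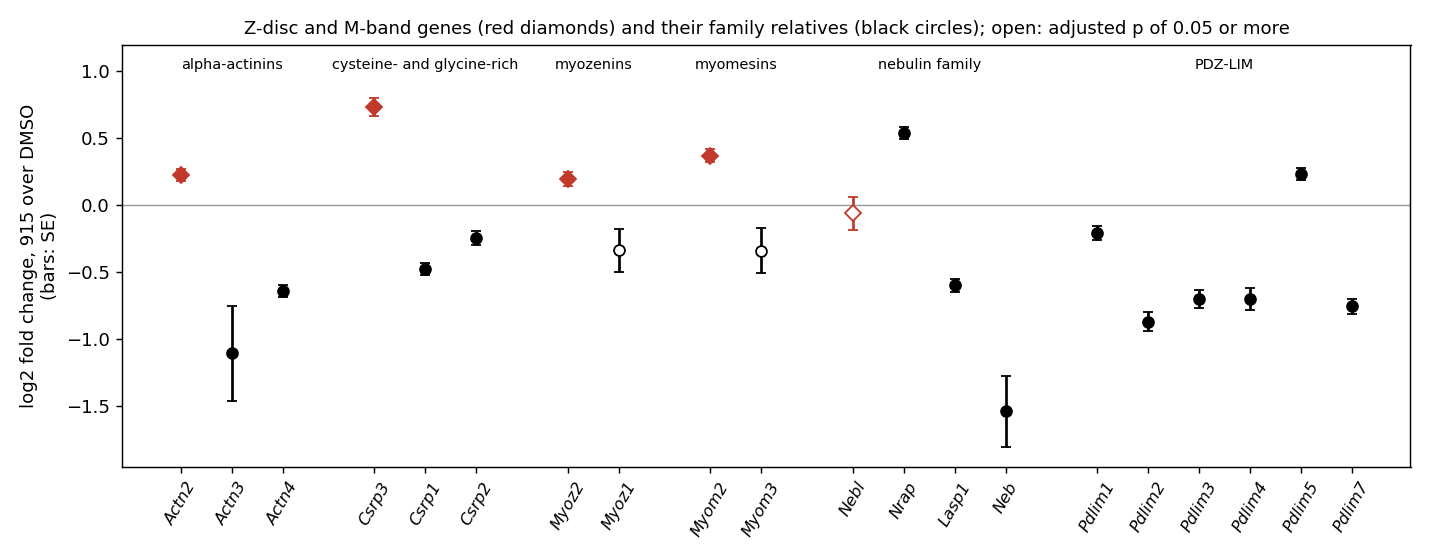
Log2 fold change, 915 over DMSO with TMM scaling, of Actn2, Csrp3, Myoz2, Myom2 and Nebl (red diamonds) and of 15 relatives (black circles), grouped by protein family. Bars are SE, and open symbols did not pass an adjusted p of 0.05. Relatives lie below 0 except Nrap and Pdlim5.

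The wider Z-disc list had 18 tested rows: 12 rose, 4 fell and 2 did not pass, and its median log2 fold change was 0.31. Among all tested genes 24.3% rose and 25.5% fell, so the share of the list that fell was near that of all genes. Of the 19 in the table, Myot was not tested because it was nearly uncounted. Bag3, a co-chaperone that keeps Z-disc proteins in turnover, rose to 334 ± 13.6 CPM with 915, against 188 ± 3.16 CPM with DMSO (log2 fold change 0.88 ± 0.048 SE, edgeR adjusted p = 3.00e-09). Flnc, the muscle filamin, rose to 760 ± 23.5 CPM with 915, against 534 ± 14.8 CPM with DMSO (edgeR adjusted p = 2.24e-07). Palld, an actin scaffold also abundant in fibroblasts and smooth muscle, has 2 rows in the table, which fell by 0.87 and 0.38. The other lower genes were Synpo2l and Nexn, and the genes that did not pass were Capzb and Xirp2 (named after their values were seen). Nexn and Xirp2 were highest in DMSO replicate 3, which was also the highest DMSO library for Nebl. Nexn was at 217, 261 and 234 CPM with 915, against 322, 253 and 383 CPM with DMSO. Its log2 levels had r = 0.64 with those of Nebl over the 6 libraries (0.707 for Xirp2). These coefficients include the difference between the groups. Nexn and Xirp2 were picked for them after their values were seen, and the share of all genes with such coefficients was not counted.

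Among 7 tested partners of titin 5 rose, 1 fell and 1 did not pass, and the median was 0.31, against 24.3% higher and 25.5% lower among all tested genes. Fhl1, a LIM protein that binds the elastic part of titin, rose 1.79-fold, to 577 ± 11.6 CPM with 915, against 334 ± 7.11 CPM with DMSO. Rbm20, the factor known to direct titin splicing, rose 1.35-fold, to 200.3 ± 6.52 CPM with 915, against 154 ± 7.87 CPM with DMSO (edgeR adjusted p = 9.66e-06). Mybpc3, cardiac myosin-binding protein C, rose 1.3-fold. The lower gene was the protease gene Capn3, at 0.249 ± 0.0304 CPM with 915 and 1.09 ± 0.393 CPM with DMSO (named after its values were seen), and at a minimum mean of 1 CPM it was not tested.

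In the wider M-band list 10 of 11 genes rose and 0 fell, and the median was 0.48. Among all tested genes 24.3% rose and 25.5% fell. The cardiomyocyte markers went the same way, with 9 of 10 higher, 0 lower and a median of 0.39, so the rise was not particular to this list. Trim54, a muscle ubiquitin ligase of the MURF family, rose 2.24-fold, to 271 ± 16.0 CPM with 915, against 125 ± 4.39 CPM with DMSO (edgeR adjusted p = 7.31e-10). Sqstm1, the autophagy receptor p62 that meets the titin kinase at the M-band, rose 1.95-fold, and the MURF-family gene Trim63 1.68-fold. The gene that did not pass was Obsl1, a cytoskeletal adaptor gene, at 227 ± 12.2 CPM with 915 and 231 ± 7.60 CPM with DMSO (named after its values were seen). Relative to the summed cardiomyocyte markers, 3 of the 11 M-band genes were higher and 5 lower, 3 of the 18 wider Z-disc rows were higher and 10 lower, and 1 of the 7 titin partners was higher and 4 lower. On that scale 3.06% of all tested genes were higher and 75% lower, with the median of all genes shifted by −0.51.

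**Figure D4:**
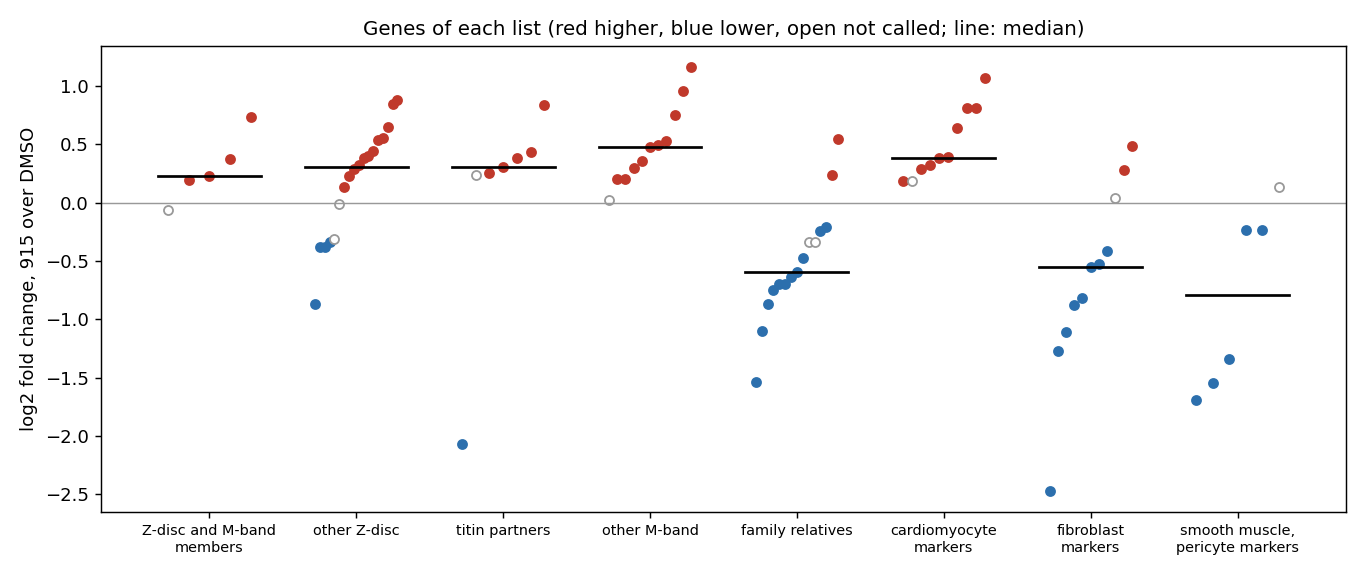
Log2 fold change, 915 over DMSO with TMM scaling, of every tested gene in the Z-disc and M-band set, the 3 lists of associated genes, the family relatives and 3 lists of cell type markers. Red points are higher and blue points lower at an adjusted p under 0.05, open points did not pass, and lines are list medians, 0.23 for the Z-disc and M-band set and −0.60 for the relatives.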

How the data were processed

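STAR 2.5.1a, Subread featureCounts 1.4.6-p5 and the build Rnor_6.0 are named in the submitters' processing notes. How strand and multi-mapping reads were handled is not given in the sources used here; genes that overlap or have close copies may therefore share or lose reads. The authors deposited raw counts per gene and CPM, which are those counts divided by 1 total per library; the table holds 93.1% to 93.7% of that total. Of 22641 rows, 993 repeated an identifier with the same values and were dropped. Here 3 counts equal 0.0698 to 0.0917 CPM, for counting error only. No library was a copy of another of its group (chi-square over degrees of freedom 5.27 to 11).

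Counts were tested with edgeR 4.0.16 in R 4.3.3 (filterByExpr, TMM, quasi-likelihood on group, two-sided, Benjamini-Hochberg over 14253 genes, threshold 0.05). The procedure was also run on simulated counts. Their spread was set alike for all genes, so real differences in spread between genes were not tried. The biological coefficient of variation was 6.84%, and 7943 genes passed an unadjusted p under 0.05. Ratios used log2 of counts plus 0.5. DESeq2 1.42.0 and limma 3.58.1 (voom) were alternatives. No gene lengths or proteins were used, so levels are not compared between genes. The 56 genes of 4 associated lists gave 53 rows, Palld having 2 and the genes without a row not being analysed here; Cavin4 was listed as Murc. The genes and lists were chosen with earlier results of these data known. Named were the 5 genes, all family relatives, up to 3 genes with the smallest p in each other list, and the 8 most similar profiles.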

Additional observations from a re-analysis of the deposited data

How the results depend on the processing

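Of 70 refits of the 5 log2 fold changes, 64 kept their direction and their side of the threshold. The exceptions were the 4 changes already given relative to the summed cardiomyocyte markers (−0.2841 for Actn2, −0.3138 for Myoz2, −0.1374 for Myom2 and −0.5694 for Nebl) and the 2 reversals of Nebl, to 0.07125 without 915 replicate 3 and 0.04559 without DMSO replicate 3; leaving out each library gave Nebl values from −0.2274 to 0.07125, none past the threshold. On the marker scale 1 of the 5 genes was higher and 4 lower, and 436 of all genes were higher and 10686 lower, as follows from dividing by a sum that was larger with 915. In every other setting run (RLE size factors, library totals alone, no filter, a mean of at least 1 CPM, DESeq2, limma-voom, the replicate block and leaving out each library) 4 of the 5 genes were higher and 0 lower. The log2 ratio of Myoz2 to Actn2 ranged from −0.06514 to 0.000753 over leaving out each library; it was 0.000753 without 915 replicate 1 and 0.0001643 without DMSO replicate 2, and the cause was not tested.

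Samples with the same replicate number did not deviate together (correlations of −0.0338, −0.111 and −0.0896). With 3 libraries a group this cannot show whether the numbers mark a shared cell isolation. With a replicate block 2996 genes were higher and 3197 lower. The planned ratios of Tcap to Ttn, Actn2 to Ttn and Myom2 to Myom1 and the levels per length were not run, for want of rows or lengths used here. Nebl has the fewest counts of the 5 genes, 1224 to 1799 per library.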
